A study of Mus musculus with 8 samples.

Results

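Mouse iPSCs labelled OSKH were set against iPSCs labelled OSK, array by array, for the numbers that both groups share. The 6 arrays titled OSKH 1, 2 and 3 and OSK 1, 2 and 3 were chosen from the 8 arrays of the series by their titles, and each OSKH array was paired with the OSK array of the same number. OSKH is taken as Oct4, Sox2 and Klf4 with the linker histone H1foo, and OSK as the same factors without H1foo. The labels do not spell these letters out. Both groups were undifferentiated cells of the C57BL/6J strain, and the series calls OSK its control. The labels do not say whether the arrays of a group came from separate clones or cultures, so the p-values measure the spread among these arrays and that spread may be technical.

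The arrays shared 1 slide and 1 scan. Arrays of the same number also lay in the same slide column. OSKH 1 to 3 occupied slide row 1 and OSK 1 to 3 occupied slide row 2, so within the 3 pairs group and slide row cannot be told apart. The OSKH 4 array, in row 2, and the ESC array, in row 1, have no partner. Their levels are given beside the pairs where a result turns on them, as lying on the side of the OSKH mean or of the OSK mean, whichever was nearer.

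Induced pluripotency is reached when ectopic transcription factors switch a somatic cell to the gene network of the early epiblast. In such cultures a small and changing share of cells passes through a state resembling the 2-cell embryo, marked by Zscan4 and other genes of zygotic genome activation. Pluripotent cells are also known for weak interferon responses, and the interferon-stimulated genes, which block viruses and mark infected cells, are driven in differentiated cells by factors that include Stat2 and Irf9.

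Levels are log2 processed signals minus the 75th percentile of their array, so 0 is the level of that percentile, and differences are OSKH minus OSK of the same number in log2 units. A signal well above background was given by 54.3%, 54.5% and 59.0% of probes on OSKH 1, 2 and 3. On OSK 1, 2 and 3 the shares were 51.5%, 51.6% and 55.4%, lower in every pair. The requirement of such a signal on at least 3 of the 6 arrays was passed by 22401 features (genes, or probes without a gene symbol). The pluripotency markers Pou5f1, Sox2, Nanog, Zfp42, Esrrb, Dppa5a, Sall4, Lin28a, Tdgf1 and Utf1 were measured on all 6 arrays. Of 25 fibroblast and matrix markers, 14 were measured on all 6 arrays and Col5a2, Lum, Prrx1 and Lox on none. The mean level of that list ran from -0.61 to -0.53 on the OSKH arrays and from -0.97 to -0.39 on the OSK arrays.

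The pairs differed in size and only partly in direction. Pair 1 had the widest differences, with an SD over features of 0.48 against 0.38 in pair 2 and 0.36 in pair 3, and 5.02%, 2.72% and 2.22% of features differed by at least 1 log2 unit. Across features, which are not independent replicates, the differences of pairs 2 and 3 correlated at 0.38, those of pairs 1 and 3 at 0.22 and those of pairs 1 and 2 at 0.10. The OSKH 1 array was the one that stood apart: it lay 0.62 and 0.60 (root mean square log2 difference) from OSKH 2 and OSKH 3, while OSKH 2 and OSKH 3 lay 0.33 from each other.

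**Figure D1:**
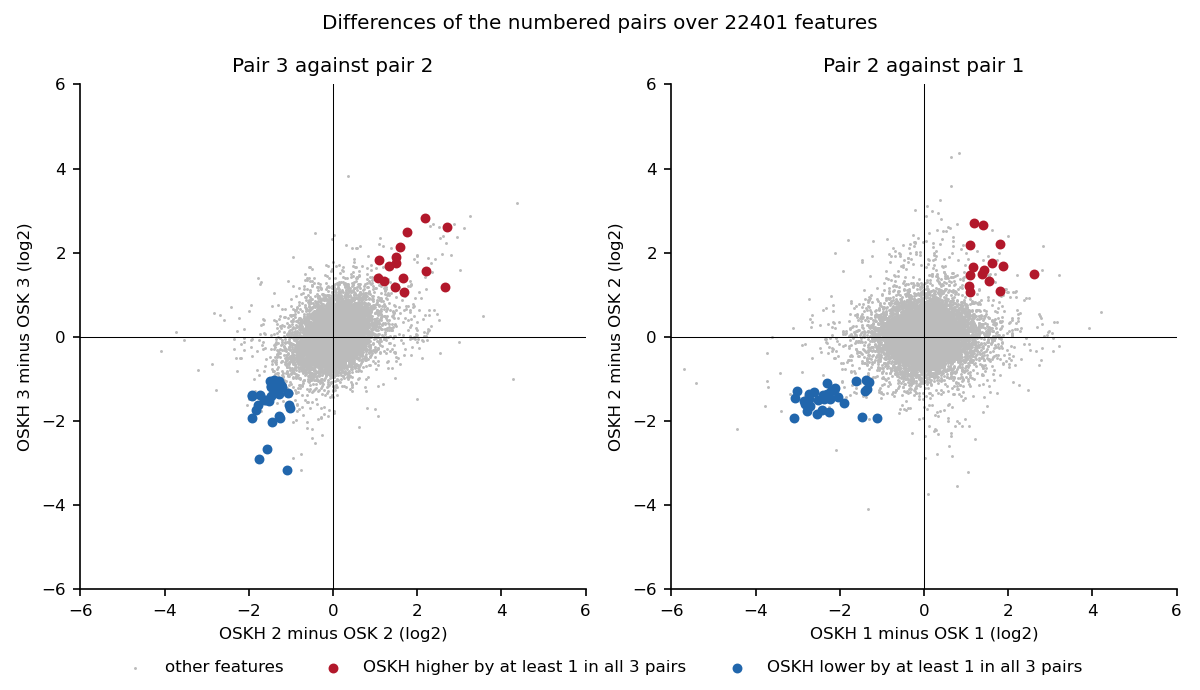
Differences of the numbered pairs over 22401 features, each axis giving OSKH minus OSK of 1 pair in log2 units. Red points are the 15 features higher in OSKH by at least 1 in all 3 pairs and blue points the 33 lower by at least 1; the cloud is more elongated for pairs 2 and 3 than for pairs 1 and 2.

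OSKH was higher than OSK in all 3 pairs in 3647 features (16.3%) and lower in all 3 pairs in 3990 (17.8%). With the array median in place of the 75th percentile, the share of higher among these same-sign features was 63.4%, against 47.8%, so the balance of the 2 directions depends on the scaling. All 3 OSKH arrays lay above all 3 OSK arrays in 1277 features (5.7%) and below them in 1342 (5.99%). At least 1 log2 unit separated every pair in 15 features that were higher in OSKH (0.067%) and 33 that were lower (0.147%). At the edge of that limit, the gene Gm4340 was just inside, with -2.33, -1.40 and -1.03 in pairs 1, 2 and 3, and Lgals3bp just outside, with 1.00, 1.99 and 1.91.

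By limma, 0 of 22401 features (0%) passed an adjusted p of 0.05. The smallest was 0.657. There were 1366 features with an unadjusted p under 0.05 (6.1%), 746 higher and 620 lower in OSKH. With the replicate number as a block, which compares the arrays within their pairs, the count was again 0, with 0.375 the smallest adjusted p, and 2298 had an unadjusted p under 0.05 (10.3%). Without OSKH 1 the unblocked fit gave 2373 such features, and without OSK 2 it gave 731. None of the genes described here passed the adjusted threshold, and their values are descriptions of these 3 pairs.

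The interferon-stimulated genes were the list that lay furthest above 0. Of 36 listed genes 34 were on the array and 32 were tested. In OSKH 25 of the 32 were higher in all 3 pairs and 0 were lower, beside 16.3% and 17.8% of all features. Genes such as Irf7 and Uba7, measured on 3 OSKH arrays and 1 OSK array, passed the filter mainly through OSKH. Of the 23 well above background on all 6 arrays, 17 were higher in all 3 pairs, beside 3189 of 20239 such features. The median difference of the 32 genes was 0.96, against -0.0071 over all features. An unadjusted limma p under 0.05 was found for 23 of the 32, beside 6.1% of all features. The medians were 0.54 in pair 1, 1.40 in pair 2 and 1.09 in pair 3. Pair 1 had the smallest of the 3 differences in 27 of the 32 genes, beside 8251 of all 22401 features. Without pair 1, 32 of 32 were higher in both remaining pairs, beside 28.8% of all features, with a median of 1.16. Oas1g and Ifi44 were measured on no array of the 6.

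Part of the interferon genes share a response element in their promoters. The interferon-stimulated response element is bound by complexes that hold Stat2 and Irf9 and by other Irf proteins, and its core was searched as GAAANNGAAA on both strands, counting overlapping matches. The windows run from 250 bases before to 50 after the start of each gene in RefSeq (build GRCm38.p6). Of the 25 interferon genes higher in all 3 pairs 18 had a window, and 9 of these 18 held the core, as did 2 of 6 with a window among the other 7 tested interferon genes, against 3.99% of all 27025 genes with a window. Irf7 and Uba7 had a window with 0 matches, and Ifi27 had no window. The 5 genes of that set with at least 2 matches are printed, 80 bases each in the gene's direction, with the matches in capitals.
Bst2, chr8:71537555-71537634, minus strand: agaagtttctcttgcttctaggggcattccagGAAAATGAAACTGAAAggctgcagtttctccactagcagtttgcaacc
Ifit1, chr19:34640759-34640838, plus strand: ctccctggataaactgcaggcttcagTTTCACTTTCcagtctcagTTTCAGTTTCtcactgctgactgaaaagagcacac
Ifit3, chr19:34583355-34583434, plus strand: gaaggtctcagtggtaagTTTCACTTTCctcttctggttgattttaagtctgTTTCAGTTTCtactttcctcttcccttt
Isg15, chr4:156200846-156200925, minus strand: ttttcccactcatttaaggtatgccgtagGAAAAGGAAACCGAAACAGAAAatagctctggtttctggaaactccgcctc
Oas1a, chr5:120907498-120907577, minus strand: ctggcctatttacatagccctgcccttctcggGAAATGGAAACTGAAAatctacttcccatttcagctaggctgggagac
The matches begin at -130 from the start in Bst2, -104 in Ifit1, -156 in Ifit3, -78 in Isg15 and -20 in Oas1a. A match describes the letters of these windows and was not tested as a binding site. The list was made of interferon-stimulated genes, so its share of matches describes the list and not a difference between OSKH and OSK.

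Among the transcription factors of the response, Stat2, which acts in a complex with Irf9, differed most evenly. It was at 2.60, 2.00 and 2.27 on OSKH 1, 2 and 3, against 1.62, 1.24 and 1.34 on OSK 1, 2 and 3. The groups did not overlap, and the mean difference was 0.89 (SE 0.19, unadjusted limma p 0.00321). Irf9, its DNA-binding partner, differed by 0.44, 0.65 and 0.75 in the 3 pairs. Irf7, the factor that amplifies type I interferon production, differed by 1.09, 2.18 and 2.83, but was well above background on only 1 of 3 OSK arrays, and its mean difference of 2.03 became 0.89 after normexp background correction.

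The effector genes gave the largest of the even differences. Ifi27, a small interferon-induced membrane protein, was at 5.56, 4.00 and 4.55 on OSKH 1, 2 and 3, against 3.94, 2.25 and 2.04 on OSK 1, 2 and 3. Its OSKH levels lay above every OSK level, although OSKH 2 and OSK 1 were close, and the mean difference was 1.96 (3.88-fold, SD of the pair differences 0.48, n = 3 pairs). Oas1a, a sensor of double-stranded RNA that activates RNase L, was at 5.15, 4.46 and 4.99, against 3.77, 2.97 and 3.09 on the OSK arrays. All its OSKH levels were clear of the OSK levels, by 1.38, 1.49 and 1.90 in the pairs (mean 1.59, SE 0.28, unadjusted limma p 0.00131). Oas1f, a close paralogue whose probe may share signal with Oas1a, differed by 1.42, 1.59 and 2.13. Bst2, or tetherin, which holds budding virus at the cell surface, differed by 0.41, 1.09 and 1.33.

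The Isg15 conjugation system, which attaches the ubiquitin-like protein Isg15 to targets, differed between its members in how the pairs compared. Isg15 was at 2.73, 4.51 and 4.53 on OSKH 1, 2 and 3, against 2.34, 1.26 and 1.66 on OSK 1, 2 and 3. The pair 1 arrays lay close together, and the other pairs lay 3.25 and 2.87 apart. Usp18, which removes Isg15 and restrains interferon signalling, had 0.80, 1.87 and 2.36, against 0.12, -0.49 and -0.31 on the OSK arrays, with no overlap. The activating enzyme Uba7, which had the lowest unadjusted p of the fit (4.19e-05), differed evenly by 1.17, 1.66 and 1.40. It was measured on 1 of 3 OSK arrays, and its mean difference of 1.41 became 0.42 with normexp. The ligase Herc6 differed by 0.86, 1.39 and 1.05. The conjugating enzyme Ube2l6 had its largest difference in pair 1, with 1.41, 0.23 and 0.83.

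**Figure D2:**
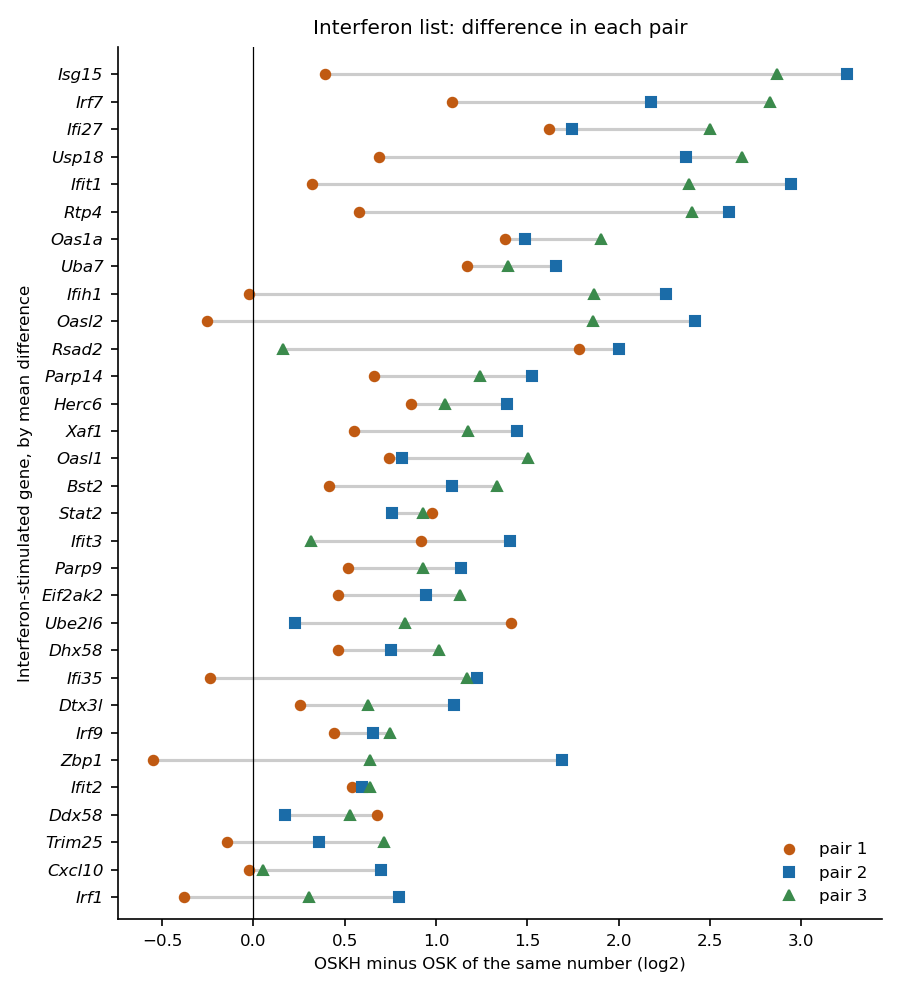
Difference of each numbered pair (OSKH minus OSK, log2) for 31 of the 32 tested interferon-stimulated genes, ordered by the mean difference. For 24 of these 31 genes all 3 points lie right of 0. The circle of pair 1 is the leftmost point in 26 of the 31, beside 8251 of all 22401 features.

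The remaining 7 interferon genes were mixed, and in all 7 pair 1 was below 0 while pairs 2 and 3 were above it, a pattern found in 12.5% of all features. Oasl2, an oligoadenylate synthetase-like protein, had -0.25, 2.42 and 1.86, and the RNA sensor Ifih1 had -0.02, 2.26 and 1.87. The class I antigen presentation list repeated this pattern in 8 of 17 tested genes. There 6 genes were higher and 1 lower in all 3 pairs, beside 16.3% and 17.8% of all features, and the medians were -0.13, 0.52 and 0.53. Without pair 1, 14 of the 17 were higher in both remaining pairs, beside 28.8%. Psmb8, a subunit of the immunoproteasome, was at -1.68, 0.51 and 0.45 on OSKH 1, 2 and 3, against -1.48, -2.51 and -1.14 on OSK 1, 2 and 3, so OSKH 1 lay among the OSK levels. B2m, the light chain of class I molecules, was the even exception, at 1.85, 1.83 and 2.12 against 1.34, 1.31 and 1.39 on the OSK arrays.

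The unpaired arrays lay with their slide row for most of the interferon list. Of the 25 interferon genes higher in all 3 pairs, OSKH 4, in the row of the OSK arrays, lay on the OSK side in 20, beside 1823 of the 3647 features higher in all 3 pairs. The ESC array, in the row of OSKH 1 to 3, lay on the OSKH side in 25 of 25, beside 64.9%. Ifi27 was at 1.5 on OSKH 4 and 3.95 on ESC, and Oas1a at 3.16 and 4.75. For B2m, OSKH 4 was at 2.09 and ESC at 2.26, both among or above the paired OSKH arrays. The part of the slide row in these differences was not tested.

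**Figure D3:**
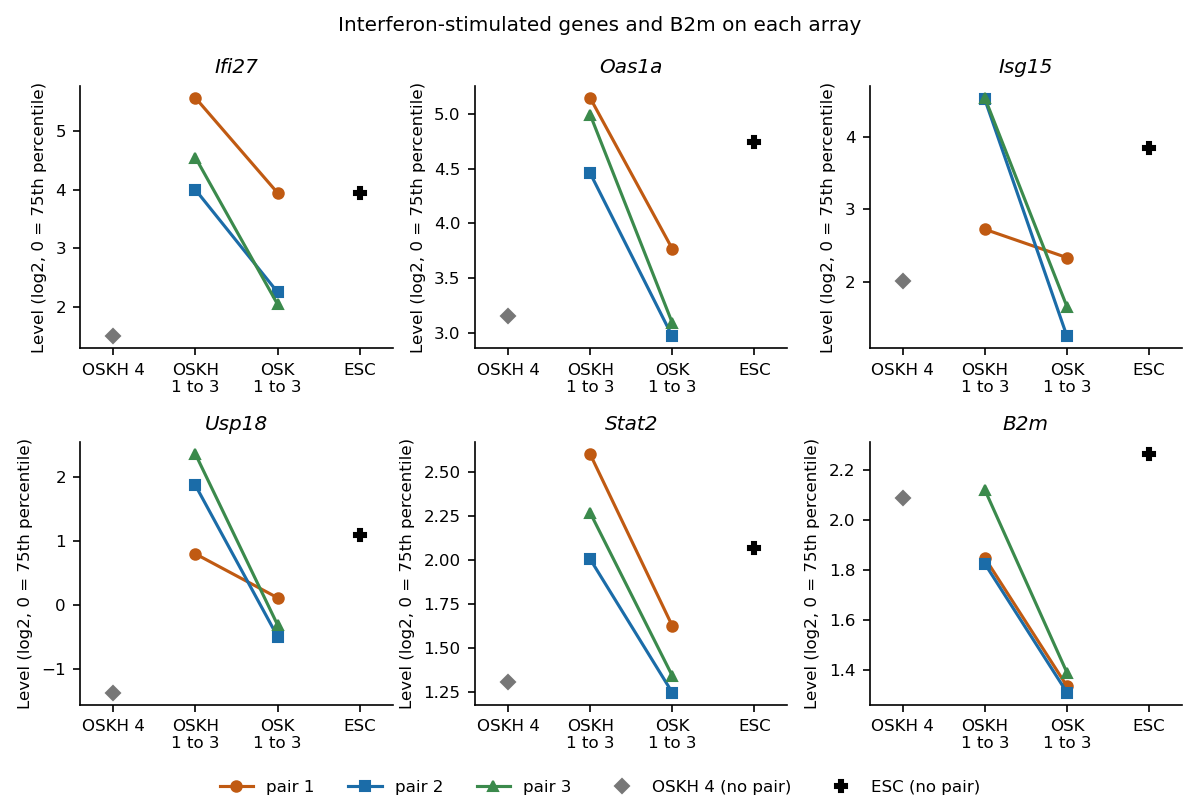
Levels (log2 processed signal, 0 = 75th percentile of the array) of 6 genes, with lines joining OSKH and OSK of the same number and single points for OSKH 4 and ESC. Every line falls to the right, steeply in pairs 2 and 3 and least in pair 1 for Isg15 and Usp18, and OSKH 4 lies near or below the OSK arrays except for B2m.

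Outside the interferon list, the genes measured on all 6 arrays with the largest smallest-pair difference included a secreted inhibitor and a metal transporter. Fst, or follistatin, which binds and neutralises activin, was at 1.91, 1.41 and 2.69 on OSKH 1, 2 and 3, against 0.11, 0.32 and 0.86 on OSK 1, 2 and 3. The groups did not overlap, and the mean difference was 1.57 (SE 0.36, unadjusted limma p 0.00531). Slc40a1, the iron exporter ferroportin, was at -0.08, -0.60 and -0.19, against -1.60, -1.47 and -1.61, also without overlap. Lgals3bp, a secreted galectin-binding glycoprotein, was at 0.70, 0.74 and 1.02, against -0.30, -1.26 and -0.90. For these 3 genes OSKH 4 and ESC both lay on the OSKH side, with Fst at 3.07 and 1.85. For Lgals3bp OSKH 4 did so only narrowly: at 0.18 it lay below all paired OSKH arrays, between the group means of 0.82 and -0.82.

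Grik3, a kainate-type glutamate receptor subunit, differed by 2.43, 0.92 and 1.36 and Lnx1, a ubiquitin ligase of the Numb pathway, by 2.05, 0.95 and 1.22, both without overlap. Hopx, a homeodomain-only cofactor, differed by 0.97, 1.71 and 0.98, and OSKH 1 at -1.65 lay below OSK 3 at -1.06. The definitive endoderm factor Foxa2 differed by 1.53, 1.33 and 1.68, and was measured on 2 of 3 OSK arrays. Its levels were low in every pair, at -2.86, -2.52 and -1.24 on OSKH 1, 2 and 3, against -4.40, -3.86 and -2.93, while OSKH 4 was at 4.03 and ESC at 0.80. With normexp its mean difference of 1.52 became 0.76.

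Of the 15 features higher by at least 1 in all 3 pairs, 12 had a gene symbol and 3 were intergenic probes that the array names by position. Beside Ifi27, Oas1a, Uba7, Irf7, Oas1f, Fst and Foxa2 these were Wfdc17, Zfp521, Astn1, Hspb2 and Nobox, which were measured on 2 or fewer OSK arrays. Wfdc17, a secreted whey acidic protein family member, had its highest OSKH level on OSKH 1, at -0.17 against -4.22 and -3.49 on the others. OSKH 4 lay on the OSKH side for 9 of the 15 features, near the 1824 of the 3647 features higher in all 3 pairs. ESC lay there for 14, beside 64.9% of those 3647.

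Genes measured on all 3 arrays of OSKH and on none of OSK had only a bound on their fold. The bound sets the OSKH mean against, per OSK array, the higher of the gene's own level and the lowest level counted as well above background. Such genes passed the filter through the OSKH arrays alone, so being higher in OSKH was part of their selection. By this bound Prom2, a membrane protein of the prominin family, was 1.91-fold higher in OSKH. The bound was 1.89-fold for the interferon-inducible DNA sensor family member Ifi204 and 1.87-fold for Ctla2b. For the integrin subunit Itga9 it was 1.90-fold, the same as the plain fold of the means. All these genes were dim, with OSKH levels between -3.91 for Ctla2b and -2.55 for Itga9. The histone gene H2bc23 was 1.62-fold higher by the same bound. The bounds did not survive normexp, under which the mean log2 differences were 0.37 for Prom2, 0.33 for Itga9, 0.41 for Ifi204, 0.32 for Ctla2b and 0.27 for H2bc23, smaller than each gene's bound. No gene qualified in the other direction. Among genes with a measured difference, normexp also moved Hopx to 0.68 against 1.22, Grik3 to 1.03 against 1.57 and Ifih1 to 0.66 against 1.37.

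Hypoxia and glycolysis genes were higher in all 3 pairs in 13 of 34 tested members and lower in 3, beside 16.3% and 17.8% of all features, with medians of 0.12, 0.05 and 0.45. Without pair 1 these were 19 and 4, beside 28.8% and 32.1%, with a median of 0.29. Of the 13 genes higher in all 3 pairs, OSKH 4 lay on the OSK side in 9, beside 1823 of the 3647 such features. ESC lay on the OSKH side in 6 of the 13, beside 64.9% of those features. Egln3, a prolyl hydroxylase that is itself a target of Hif1a, was at -0.10, 0.17 and 1.47 on OSKH 1, 2 and 3, against -0.95, -1.01 and -0.69 on OSK 1, 2 and 3. The OSK levels were tight and OSKH 3 stood out above the other OSKH arrays. OSKH 4, at -0.24, and ESC, at -0.34, both lay on the OSK side for Egln3. The mitophagy receptor Bnip3 differed by 0.28, 0.53 and 1.65 and the glycolytic aldolase Aldoc by 0.90, 0.41 and 1.15. The membrane carbonic anhydrase Car9, another Hif1a target, was lower, by -0.31, -0.73 and -0.63. The ribosomal protein and respiratory chain lists had medians within 0.05 of 0 in each pair.

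The linker histones, the family to which H1foo belongs, were higher in all 3 pairs in 5 of 8 tested genes and lower in 0 (16.3% and 17.8% of all features). Their medians were 0.69, 0.22 and 0.06 in pairs 1, 2 and 3, and the median without pair 1 was 0.14, against 0.31 with it. H1f8, the current symbol of H1foo, was not among the 5: it was at -1.24, -1.70 and -1.16 on OSKH 1, 2 and 3, against -1.33, -1.67 and -1.55 on OSK 1, 2 and 3. The groups overlapped, and the pair differences of 0.08, -0.03 and 0.38 averaged 0.15 (SE 0.18, unadjusted limma p 0.44). H1f0, the replication-independent linker histone, differed by 1.1, 1.04 and 0.33, but was measured on only 1 of 3 OSK arrays, and its mean of 0.82 became 0.30 with normexp. H1f6, the testis variant, differed by 0.91, 0.33 and 0.33 and H1f5 by 0.55, 0.21 and 0.09.

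Of the other reprogramming factors, Pou5f1, which encodes Oct4, was at 6.23, 6.17 and 6.27 on the OSKH arrays, against 6.14, 6.15 and 6.25 on the OSK arrays. The pair differences of 0.10, 0.02 and 0.02 were within the spread of the arrays. Sox2 differed by 0.28, 0.11 and 0.09. Klf4 differed by 1.04, -0.72 and -0.11, with OSKH 1 at 3.69 above all other paired arrays. Myc, which is not named in either label, was lower in all 3 pairs, at 1.05, 1.08 and 0.61 on OSKH 1, 2 and 3, against 1.46, 1.73 and 1.43 on OSK 1, 2 and 3, without overlap (mean -0.63, SE 0.16, unadjusted limma p 0.0092). The position of the probes was not examined, so whether they detect a transgene is not known here.

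Genes of the 2-cell-like state gave the largest negative differences. Of 16 listed genes on the array 8 were tested, and 7 of these were lower in OSKH in all 3 pairs, beside 17.8% of all features. The median was -1.66, and the medians per pair were -2.39, -1.40 and -0.62. Without pair 1, 7 of 8 were lower in both remaining pairs, beside 32.1% of all features, with a median of -1.06. The other 8 listed genes were measured on 2 or fewer arrays. Of the 8 tested genes 5 were well above background on all 6 arrays. All 5 were lower in all 3 pairs, beside 3760 of 20239 such features. Tcstv1, measured on 3 OSK arrays and 1 OSKH array, passed the filter mainly through OSK, so being lower in OSKH was part of its selection. Zscan4f, a DNA-binding factor of the 2-cell embryo linked to telomere lengthening, was at -1.36, 1.72 and -0.40 on OSKH 1, 2 and 3, against 1.24, 3.03 and 0.76 on OSK 1, 2 and 3.

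The groups overlapped for Zscan4f, because both arrays of pair 2 were high: OSKH 2 lay above OSK 1 and OSK 3. Within the pairs the differences were -2.61, -1.32 and -1.15, with a mean of -1.69. The unblocked limma p was 0.125, and with the replicate block it was 0.00776 (adjusted p 0.383). Zscan4a differed by -2.23, -1.48 and -1.17 and Zscan4c by -2.52, -1.50 and -1.05. The Zscan4 genes are near-identical copies, so their probes may not count as separate measurements.

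Tcstv1, a gene of the 2-cell embryo linked like Zscan4 to telomeres, was at -6.43, -3.84 and -6.81 on OSKH 1, 2 and 3, against -3.64, -2.09 and -3.91 on OSK 1, 2 and 3. It was well above background on all OSK arrays and on 1 OSKH array, OSKH 2. Its pair differences were -2.79, -1.75 and -2.91, and the mean of -2.48 became -0.64 with normexp. Usp17la, a deubiquitinase, differed by -2.25, -1.66 and -0.12. Zfp352, a zinc finger gene of the same stage, differed by -0.12, -0.21 and -0.20.

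The 33 features lower by at least 1 in all 3 pairs mostly shared the order of arrays seen for Zscan4f, which was noticed after their values were seen. In 30 of the 33, OSK 2 was the highest of the 6 arrays and OSKH 2 the highest of the OSKH arrays. That order was found in 6.00% of all features. The 33 were picked as lower in every pair, which makes an OSK array the highest, so the 6.00% is not a matching share. In 27 of those 30, OSKH 2 lay above OSK 3. They include AF067061, BB287469, Tmem92, the Prame family gene Pramel31 and several Gm loci. AF067061, a transcript known from 2-cell-like cells, was at -2.83, -0.43 and -2.39 on OSKH 1, 2 and 3, against -0.30, 1.41 and -0.65 on OSK 1, 2 and 3. BB287469 had pair differences of -1.35, -1.25 and -1.15, although its levels ran from -2.15 to -0.52 on OSKH and from -0.99 to 0.72 on OSK arrays. OSKH 4 lay on the OSKH side in 32 of the 33 features, beside 2514 of the 3990 features lower in all 3 pairs. ESC lay there in 32, beside 48.5% of those 3990.

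**Figure D4:**
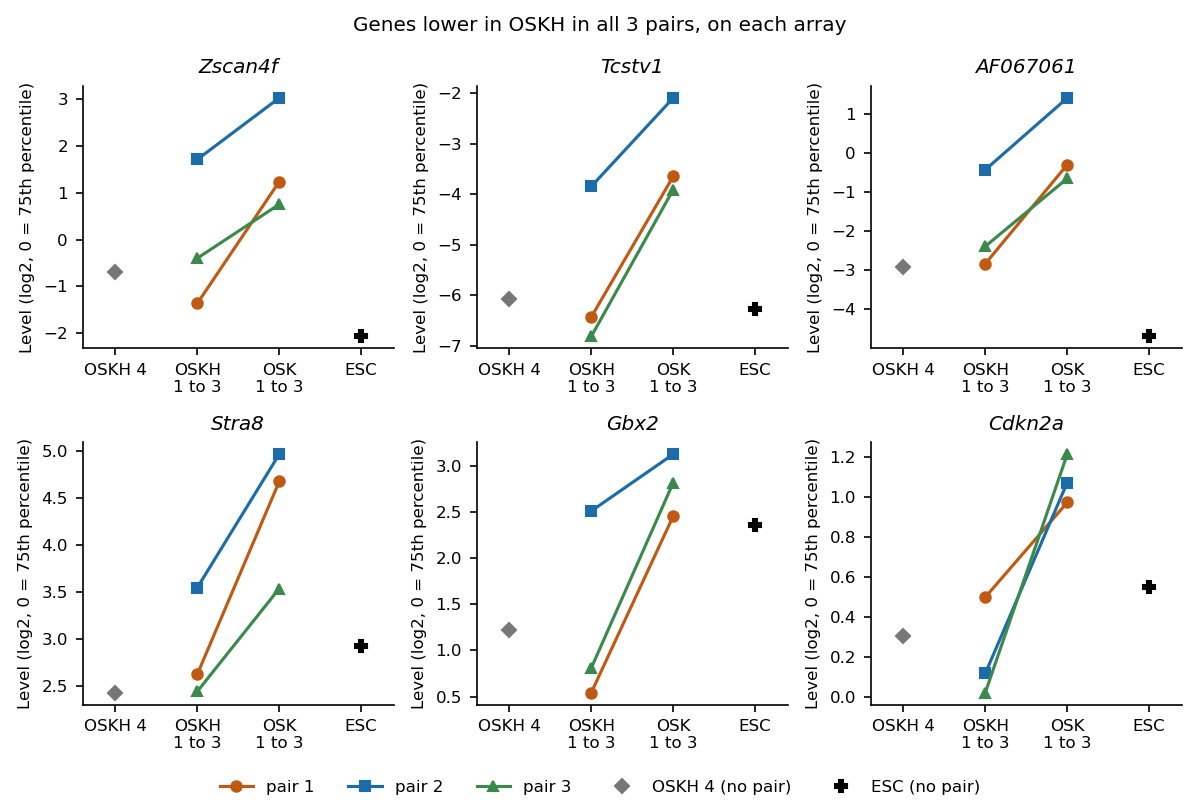
Levels (log2 processed signal, 0 = 75th percentile of the array) of 6 genes lower in OSKH in all 3 pairs, with lines joining OSKH and OSK of the same number and single points for OSKH 4 and ESC. Every line rises to the right, and for Zscan4f, Tcstv1 and AF067061 both ends of pair 2 lie above the other pairs.

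The exceptions to that order were Col6a5, an intergenic probe named by position, and a probe without a gene name. Col6a5, a collagen VI chain, was at -2.94, -2.96 and -3.71 on the OSKH arrays, against -1.48, -1.04 and -2.30 on the OSK arrays, without overlap. Its mean difference of -1.60 became -0.75 with normexp. Hoxa3, an anterior-posterior patterning gene that shared the Zscan4f order, differed by -2.31, -1.1 and -3.16 and was measured on 1 OSKH array. Hoxb2, of the same family, differed by -1.17, -0.96 and -2.88 (mean -1.67, and -1.01 with normexp). For both Hox genes OSKH 4 lay on the OSK side, at -1.23 for Hoxa3 and -0.46 for Hoxb2.

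Germline genes were mixed, with 3 of 24 tested genes higher and 5 lower in all 3 pairs, near the 16.3% and 17.8% of all features. Stra8, the gene that retinoic acid switches on at entry into meiosis, was at 2.62, 3.54 and 2.44 on OSKH 1, 2 and 3, against 4.67, 4.96 and 3.54 on OSK 1, 2 and 3. Only OSKH 2 and OSK 3 overlapped, and the mean difference was -1.52 (SE 0.46, unadjusted limma p 0.0172). Dazl, which binds mRNA in germ cells, differed by -0.60, -0.72 and -0.85 without overlap (mean -0.72, and -0.36 with normexp). Sycp3, of the synaptonemal complex, went the other way, by 0.94, 0.35 and 1.04, also without overlap. Obox6, an oocyte homeobox gene, differed by -0.88, -1.34 and -0.98, and Asb9, an adaptor of a ubiquitin ligase, by -3.70, -1.20 and -0.92, whose mean of -1.94 became -1.06 with normexp.

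Neural genes were lower in all 3 pairs in 8 of 14 tested members and higher in 0, with a median of -0.38, beside 17.8% and 16.3% of all features. Without pair 1, 9 were lower and 4 higher in both remaining pairs (32.1% and 28.8% of all features), with a median of -0.39. The mean level of the list ran from -1.21 to -0.51 on OSKH and from -0.52 to -0.26 on OSK arrays, and Neurog2, Dlx1 and Dlx2 were measured on no array. Neurog3, a proneural factor, was at -0.12, 0.44 and -0.19 on OSKH 1, 2 and 3, against 2.02, 0.95 and 0.55 on OSK 1, 2 and 3, where OSK 1 was highest and OSK 3 lay close to OSKH 2. Olig2 differed by -1.16, -0.55 and -0.80 and Insm1 by -0.56, -0.46 and -0.75. In such bulk RNA, fewer cells expressing a gene and less RNA per cell cannot be told apart. Gbx2, a homeobox gene that supports naive self-renewal, was lower as well, by -1.92, -0.62 and -2.01.

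The p53 list, of the factor and its targets, was lower in all 3 pairs in 12 of 25 tested genes and higher in 0, where 17.8% and 16.3% of all features were. The medians were -0.54, -0.10 and -0.03, with the largest in pair 1. Without pair 1, 13 of 25 were lower and 4 higher in both remaining pairs, beside 32.1% and 28.8%, with a median of -0.10 against -0.18. Btg2, an antiproliferative target, differed by -1.13, -0.25 and -0.34, and Mdm2, the ligase that degrades p53, by -0.66, -0.45 and -0.06. Cdkn1a, the p21 inhibitor, disagreed between pairs, with -1.55, -0.36 and 0.15. Among the cell cycle inhibitors, 3 of 8 were lower in all 3 pairs and 0 higher, beside the same 17.8% and 16.3%.

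Cdkn2a, which encodes p16 and the p19 protein that protects p53, was at 0.50, 0.12 and 0.02 on OSKH 1, 2 and 3, against 0.97, 1.07 and 1.22 on OSK 1, 2 and 3. The groups were clearly apart, with a mean difference of -0.88 (SE 0.15, unadjusted limma p 0.00128). Its neighbour Cdkn2b, the p15 inhibitor, differed by -1.32, -0.37 and -0.72. Rb1 differed by -0.42, -0.44 and -0.21. The other small-p genes on the lower side were Aoc1, a diamine oxidase, with -1.29, -1.0 and -0.87, Slc47a2, a transporter of organic cations, with -0.71, -0.78 and -0.63, and Fitm2, a lipid droplet protein, with -0.51, -0.57 and -0.36. The Aoc1 mean of -1.05 became -0.54 with normexp.

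Naive pluripotency genes separated the pairs from one another rather than the groups. Of 30 tested genes 3 were higher and 5 lower in all 3 pairs, no more than the 16.3% and 17.8% of all features. In 16 of the 30, pair 1 was above 0 and pair 2 below it, beside 23.2% of all features. OSKH 1 was the highest of the 6 arrays in 20 of the 30, beside 5851 of all 22401 features, so much of the difference between pairs lay in 1 array. Tbx3, a factor of the naive network, was at 3.95, 0.57 and 1.35 on OSKH 1, 2 and 3, against 1.84, 1.64 and 1.26 on OSK 1, 2 and 3. The OSK levels lay close together and the OSKH levels spread on both sides of them. Klf2 differed by 1.37, -0.68 and 0.75, Esrrb by 1.1, -0.46 and 0.11 and Prdm14 by 1.07, -0.66 and 0.40. The probe that stood for Nanog was higher in every pair, by 0.64, 0.10 and 0.54. A second, dimmer Nanog probe, also well above background on all 6 arrays, had a mean difference of -0.22, and the mean over both probes was 0.11, against 0.43 for the first.

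The formative and primed list was higher in all 3 pairs in 8 of 20 tested genes and lower in 1, beside 16.3% and 17.8% of all features. Its medians were 0.16, 0.35 and -0.007 in pairs 1, 2 and 3, and the median of the mean differences was 0.089. In only 1 of the 8 did the groups not overlap. Otx2, which drives exit from the naive state, was at 3.85, 4.12 and 4.63 on OSKH 1, 2 and 3, against 2.58, 2.08 and 3.98 on OSK 1, 2 and 3, with OSK 3 above OSKH 1. Fgf5, a marker of the primed epiblast, differed by 1.59, 1.79 and 0.75, and OSK 3 at 1.99 lay above OSKH 2 at 1.94. Dnmt3a, a de novo DNA methyltransferase, was lower, by -0.86, -0.16 and -0.32.

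In the integrated stress response list, OSKH 1 was the highest of the 6 arrays in 17 of 26 tested genes, beside 5851 of all 22401 features. This was not particular to the list: OSKH 1 was also highest in 20 of 30 naive pluripotency genes and 11 of 16 LIF and Stat3 genes. Atf3, a stress-induced factor, was at 0.51, -1.90 and -1.71 on OSKH 1, 2 and 3, against -2.55, -1.87 and -1.49 on OSK 1, 2 and 3. The OSKH 1 level was above all others, while OSKH 2 and OSKH 3 lay among the OSK levels. Chac1, a glutathione-degrading target of Atf4, differed by 3.04, 0.10 and -0.69, Ddit3 by 2.77, -0.55 and -0.27 and Fgf21 by 3.21, -0.21 and -0.52. Of the 26 genes 10 were higher in OSKH by at least 1 in pair 1, 0 in pair 2 and 0 in pair 3, beside 623, 337 and 294 of all features. Stc2, a secreted target of the same response, was the member that differed in all pairs without overlap, by 1.33, 0.77 and 0.56.

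Further genes opposed each other between the pairs by more than 1 log2 unit each way. Mt2, a metallothionein, was at 8.91, 6.36 and 6.58 on the OSKH arrays, against 7.51, 7.48 and 7.00 on the OSK arrays, so the OSKH levels lay on both sides of the OSK levels. Calml4, a calmodulin-like protein, differed by 1.74, -1.33 and -0.40, Slamf9, a cell surface receptor of immune cells, by 1.54, -1.16 and -0.24, and Mras, a Ras-related GTPase, by 1.1, -1.16 and -1.02. Apln, a peptide ligand of blood vessel growth, went the other way, with -1.24, 1.92 and 0.51. Skor1, a corepressor, had 1.27, -0.20 and -1.38.

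**Figure D5:**
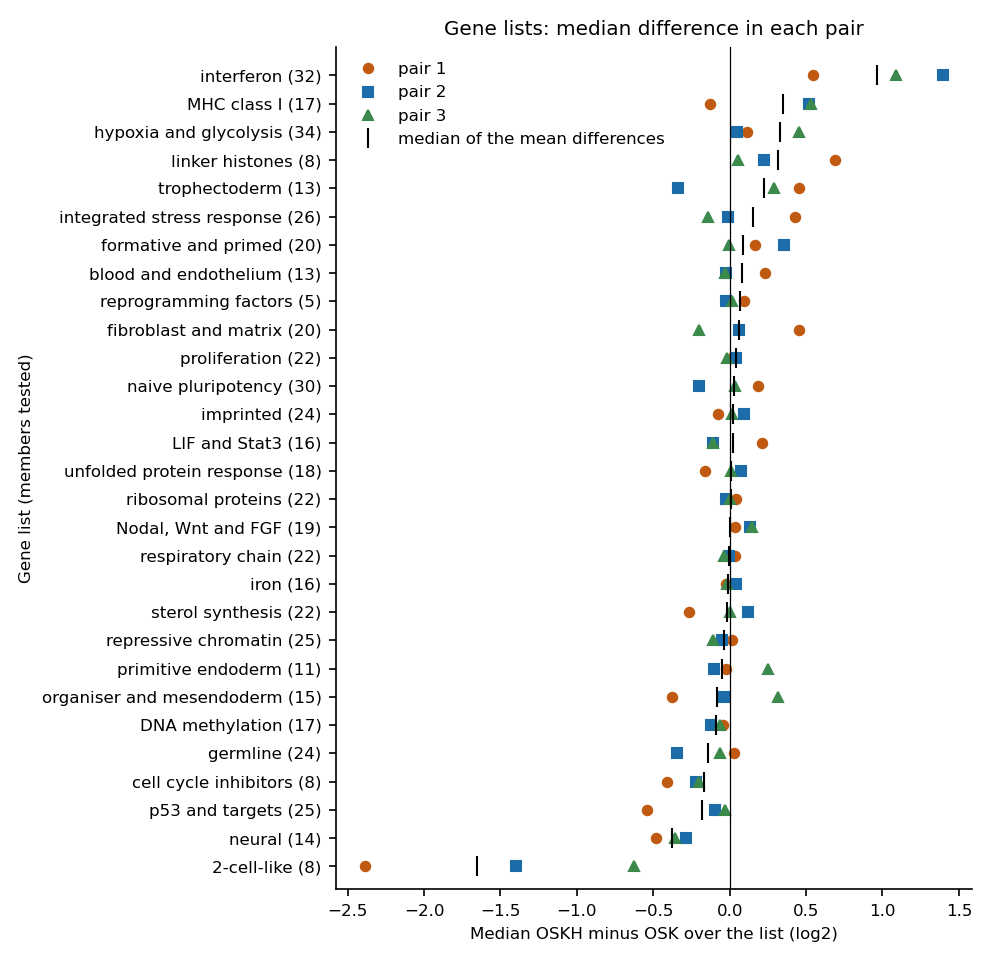
Median difference (OSKH minus OSK, log2) of each of 29 gene lists in the 3 pairs, with the median of the mean differences as a bar and the number of tested members in brackets. Interferon genes lie right of 0 and 2-cell-like and neural genes left of 0 in every pair, while the integrated stress response is right of 0 in pair 1 alone.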

How the data were processed

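Total RNA was labelled with Cy3 and hybridised to one-colour Agilent arrays, per the labels. The deposited scanner files give a processed intensity per spot, background-subtracted and detrended by Agilent Feature Extraction 11.5.1.1, per the file headers and the submitters' processing notes, and not scaled between arrays. The well-above-background, saturation and outlier flags in the same deposited files are 0 or 1. The deposited value table is on a log2 scale: each column equalled the log2 processed signal minus 1 constant for at least 99.7% of probes (tolerance 0.01), and its medians ran from -3.72 to -3.61. It served as an alternative.

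Control spots (3671) and outlier spots were left out, spots were averaged per probe, and log2 signals were set against the 75th percentile of their array. RefSeq accessions named 27650 probes through assembly GRCm38.p6, and 28017 kept the file's identifier. The probe with the highest mean stood for a gene. In 8 of 3623 genes with several probes, the group difference varied by more than 1 log2 unit from probe to probe. The 75th percentile signal was 453 to 501, with 0 saturated spots, and the number of arrays limits the precision.

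OSKH and OSK were compared by limma 3.58.1 in R 4.3.3 over 6 arrays, with Benjamini-Hochberg adjustment over 22401 features, and the script was tested on simulated data. Arrays were paired by the number in their titles, which also marks the slide column, and the main fit did not use the pairing. Deviations from the group means correlated at 0.47, 0.26 and 0.46 for arrays of the same number and at -0.40 to 0.17 otherwise. Deviations within a group cancel out, so these correlations depend on one another and do not test the pairing. Named genes were those measured on all 6 arrays with the largest smallest-pair difference (up to 10 a direction), those measured in 1 group only (up to 4), the 3 smallest p a direction, the factors, leading members of 29 gene lists, and 6 genes with the most opposed pairs. Other genes in the text were picked with their values in view. The gene lists, and the arrays described, were chosen with earlier results of these data known. Normexp used median spot and background signals in place of the mean spot signals that were planned. Microarray alternatives are given in the closing section. One gene of the interferon list is not reported by name here; it is part of the list's counts.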

Additional observations from a re-analysis of the deposited data

How the results depend on the processing

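Limma called 0 features at an adjusted p under 0.05 under every alternative run. With the replicate block, 2298 features had an unadjusted p under 0.05 (1366 without it), and leaving out single arrays gave 731 to 2373. Normexp left 4 features higher and 8 lower by at least 1 in all 3 pairs, and a signal well above background on all 6 arrays left 4 and 19, since many of these features were dim. With no filter these were 42 and 55, with 9764 features lower in all pairs, 5524 with OSKH below OSK and 2875 with an unadjusted p under 0.05. Scaling by the array median gave 2066 features with OSKH above and 803 below OSK. With 1 pair left out, 5647 to 6458 features were higher and 5748 to 7196 lower in both remaining pairs, 54 to 82 and 58 to 75 by at least 1, and OSKH lay above OSK in 3002 to 4203 and below in 3334 to 4702; fewer arrays have to agree there. The median of the interferon list was 0.71 to 1.16 over the alternatives, and that of the 2-cell-like list -1.96 to -0.43, the weakest with no filter. Of 164 genes covered by the naming rule, 140 kept their sign under every alternative, and 24, among them Klf4, Klf2, Sox2 and Pou5f1, did not. Many of the 164 were picked for having the same sign in all 3 pairs, which favours a kept sign, so the 140 does not measure robustness. Signals near background and the number of arrays limit all these values.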

Other observations

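Among the organiser and mesendoderm genes, 3 of 15 tested were higher and 3 lower in all 3 pairs, near the 16.3% and 17.8% of all features. Eomes, a T-box factor of early mesendoderm, was at -1.60, -1.63 and -0.06 on OSKH 1, 2 and 3, against -2.08, -2.17 and -2.17 on OSK 1, 2 and 3, while OSKH 4 was at 2.53. The OSK levels were tight, and OSKH 3 was the highest of the paired arrays. Snai1, a repressor of epithelial genes, differed by 1.75, 0.68 and 0.64 without overlap. Lhx1, a head organiser gene, differed by -0.70, -0.24 and -0.22.

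Of 24 tested imprinted genes 4 were higher and 5 lower in all 3 pairs, again near those shares. Slc22a18 differed by 0.34, 0.37 and 0.48 and Phlda2 by -0.53, -0.40 and -0.15, both without overlap. In the repressive chromatin list 6 of 25 genes were lower and 1 higher in all 3 pairs, beside 17.8% and 16.3%: Bmi1, a Polycomb subunit that represses Cdkn2a, differed by -0.06, -0.64 and -0.83, and Hdac2, a histone deacetylase, by 0.35, 0.32 and 0.19. The germline gene Tdrkh was at -4.18, -3.99 and -3.88 on the OSKH arrays, against -4.85, -1.15 and -4.46 on the OSK arrays, so OSK 2 alone was high. The sterol synthesis list was below 0 in pair 1 and above it in pairs 2 and 3 in 9 of 22 genes, beside 12.5% of all features, with medians of -0.26, 0.12 and 0.00.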
